A study of Homo sapiens with 6 samples.

Results

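The 46 genes described here build and supply the DNA replication machinery: the proteins that license origins, the helicase, the polymerases and primase, the sliding clamp with its loader, the factors that join new strands and wrap them in chromatin, and the enzymes that make deoxynucleotides. They were taken by name, as all probe sets whose single gene symbol in the platform annotation was one of the 46. This gave 70 of the 22283 probe sets of the array, with at least 1 for each gene. After a filter on low signal, 67 of the 70 probe sets and all 46 genes remained, among 8045 genes tested.

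Total RNA of HT1080 cells, an established human fibrosarcoma line, was measured on 6 single-channel arrays in 3 groups of 2. The cells carried the pGUS vector with GFP and an siRNA against MT1-MMP (a membrane-anchored collagenase encoded by MMP14), or the same vector with GFP and an siRNA against integrin alpha3 (a laminin receptor subunit encoded by ITGA3), or the vector with GFP alone (mock, titled GUS). All 3 groups therefore carried the vector and GFP. The labels give neither the time after transfection nor whether cells were selected or cloned, nor whether the paired arrays of each group stem from different cultures. The p-values therefore reflect array-to-array spread, part or all of which may be technical.

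Before a cell enters S phase, the origin recognition complex together with CDC6 and CDT1 loads the ring of MCM proteins onto origins. CDC45 and the GINS complex then turn this ring into the moving helicase, and primase with DNA polymerase alpha starts each new strand. Many of these genes are transcribed in waves around the start of S phase under E2F transcription factors, and they are often read as a sign of cycling cells in cultured tumour lines. In bulk RNA, fewer cells in S phase and less RNA per cell cannot be told apart.

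The deposited signals had a median between 72.9 and 83.1 on the 6 arrays. Mesenchymal markers were bright, with 5 of 6 above a median signal of 200 and VIM the brightest, while all 6 epithelial markers lay under the filter. No leukocyte, endothelial or erythroid marker on the array exceeded 157.5. Of these, 2 of 4 leukocyte, 1 of 4 endothelial and 1 of 2 erythroid markers were above the filter. The summed mesenchymal signal was higher with MT1-MMP siRNA, at 47669 to 60665, against 33251 to 36599 with alpha3 siRNA and 32765 to 39080 in mock cells, and its part in the results was not tested. MMP14 had signals of 812 and 717 in MT1-MMP siRNA cells, 999 and 1804 in alpha3 siRNA cells, and 1971 and 3064 on the mock arrays, so it lay below mock with both siRNAs, at log2 fold changes of -1.65 and -0.86. ITGA3 stood at 148 and 347 in cells with alpha3 siRNA and at 1139 and 1290 in mock cells. None of these differences had a limma adjusted p under 0.05. It was 0.139 for MMP14 with MT1-MMP siRNA, 0.851 for MMP14 with alpha3 siRNA and 0.136 for ITGA3 with alpha3 siRNA. Spiked hybridisation controls were brighter with MT1-MMP siRNA, where their median relative to the average mock array was 2.30 and 1.29, while it was 0.812 and 0.841 with alpha3 siRNA and 0.927 and 1.07 in mock cells. The part of these controls in the results was likewise not tested. The replication genes lay low on both MT1-MMP siRNA arrays, at medians of -0.64 and -0.56.

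The first comparison asks how replication genes stood in cells with MT1-MMP siRNA. Nearly all of them were lower than in mock cells: 42 of 46 had a log2 fold change below 0, where 49.7% of all genes did, and their median was -0.66, against 0.0024 over all genes. For 34 of the 46, both MT1-MMP siRNA arrays lay below both mock arrays, a pattern seen for 25.3% of all genes, and for 3 they lay above (24.6% of all genes). No single member passed limma's threshold of an adjusted p under 0.05 over all genes, and neither did any other gene (0 of 46 members, 0% of all genes). At an unadjusted p under 0.05, 26 members were lower (7.66% of all genes) and 1, RFC5 on 1 of its probe sets, was higher (6.76%). Fold changes here are on the scale log2(signal + 32), which damps those of dim genes, and each SE is that of the fitted log2 fold change.

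The mock arrays themselves differed for this group of genes. Replicate 2 of mock was lower than replicate 1 for 36 of the 46 members, with a median difference of -0.31, whereas over all genes 50.3% were lower and the median difference was -0.0023. Set against mock replicate 2 alone, the median of the members was -0.42 and 39 were below 0. Set against mock replicate 1 alone, the median was -0.77. Without MT1-MMP siRNA replicate 1, the median was -0.56. In each of these fits fewer members were lower at an unadjusted p under 0.05 than with all arrays.

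**Figure D1:**
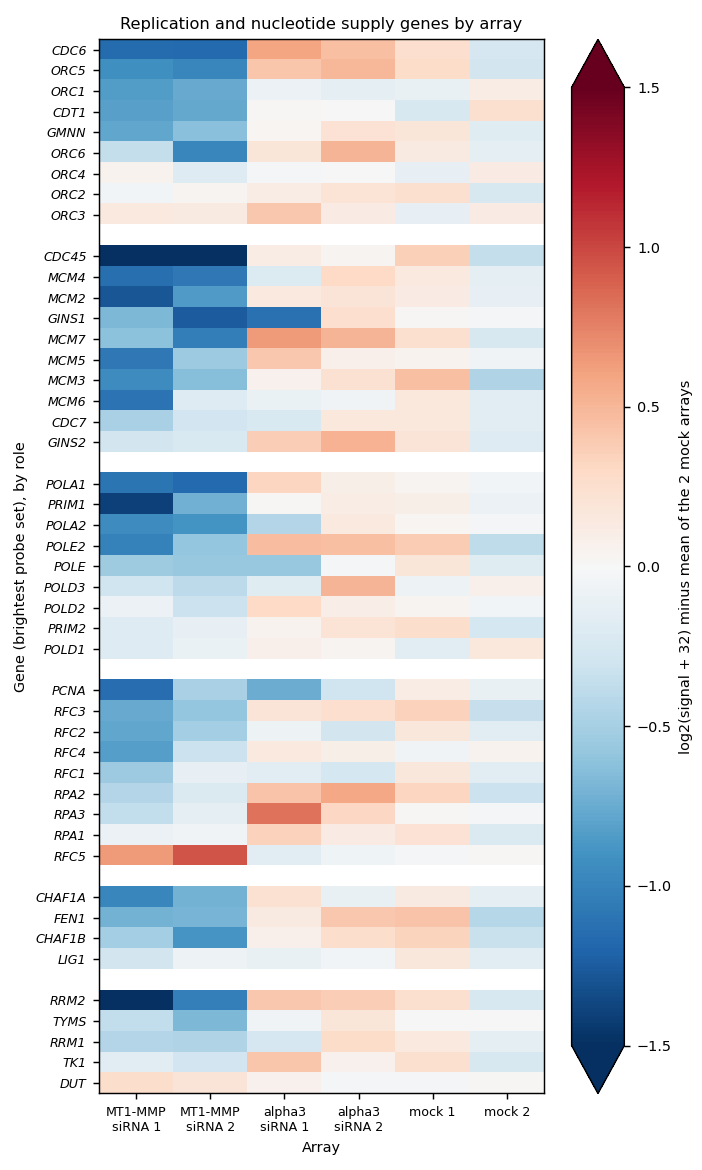
Each row is a gene (brightest probe set, grouped by role from licensing at the top to nucleotide supply at the bottom) and each column an array. Colour gives log2(signal + 32) minus the mean of the mock arrays, blue for lower and red for higher. Both MT1-MMP siRNA columns are blue in most rows, with RFC5 as a red row, and mock 2 is slightly bluer than mock 1, being lower in 36 of the 46 rows.

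Among the licensing factors, the origin recognition complex did not stand together. CDC6, which loads the helicase at origins, had 125 and 124 in MT1-MMP siRNA cells, 493 and 445 in alpha3 siRNA cells, and 381 and 260 on the mock arrays. The MT1-MMP siRNA arrays were the lowest of the 6 and close to each other, and the log2 fold change against mock was -1.16 (SE 0.22, adjusted p = 0.139 in limma), with -0.65 on the other probe set of CDC6. ORC5, a subunit of the origin recognition complex, had 227 and 216 in MT1-MMP siRNA cells, 623 and 662 in alpha3 siRNA cells, and 559 and 374 on the mock arrays, which is a log2 fold change of -0.95 (SE 0.22) against mock. ORC1, the subunit that cycles with the cell cycle in human cells, had 65.5 and 71.1 in MT1-MMP siRNA cells, 133 and 126 in alpha3 siRNA cells, and 130 and 156 on the mock arrays (-0.80, SE 0.21).

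CDT1, the partner of CDC6 in helicase loading, had 90.6 and 94.7 in MT1-MMP siRNA cells, 186 and 182 in alpha3 siRNA cells, and 150 and 222 on the mock arrays (-0.79, SE 0.22). Geminin (GMNN), the inhibitor of CDT1, had 429 and 482 in MT1-MMP siRNA cells, 773 and 887 in alpha3 siRNA cells, and 866 and 665 on the mock arrays (-0.70, SE 0.20), so the loader and its inhibitor were both at their lowest in the same cells. ORC6 had 145 and 83.0 in MT1-MMP siRNA cells, 225 and 290 in alpha3 siRNA cells, and 217 and 174 on the mock arrays (-0.67, SE 0.26, and -0.36 without MT1-MMP siRNA replicate 2). The remaining subunits lay near the mock level, with ORC4 at -0.07. ORC2 was at 0.0023, with 210 and 223 in MT1-MMP siRNA cells, 236 and 254 in alpha3 siRNA cells, and 260 and 178 on the mock arrays, and its MT1-MMP siRNA and mock arrays overlapped, as did those of ORC4. ORC3 had 259 and 256 in MT1-MMP siRNA cells, 316 and 253 in alpha3 siRNA cells, and 209 and 253 on the mock arrays, so its MT1-MMP siRNA arrays lay just above mock (0.14, SE 0.20, and 0.02 without mock replicate 1).

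The helicase was the group with the lowest median, -0.82 over its 10 genes. All 10 were below 0 (49.7% of all genes). For all 10 the MT1-MMP siRNA arrays lay below mock without overlap (25.3% of all genes). CDC45, which joins the MCM ring to make it active, had 16.6 and 21.7 in MT1-MMP siRNA cells, 213 and 201 in alpha3 siRNA cells, and 260 and 145 on the mock arrays. Its MT1-MMP siRNA signals lay under the level of the filter (47.5), which it passed through the other arrays, so the size of its change is uncertain. That level was a cut on mean signal and no detection limit. The mean of the mock arrays was 4.26-fold above that level. In the fit CDC45 stood at -2.15 on the log2 scale (SE 0.27, limma adjusted p = 0.0537), a value that depends on the offset. It was -3.29 with an offset of 1 (adjusted p = 0.0417 in limma) and -1.32 with an offset of 100. Over the alternatives with all arrays and a value recorded for it, limma's adjusted p ranged between 0.0381 and 0.137. It also passed with the replicate numbers of mock swapped, where no value was recorded. Without mock replicate 1 it was at -1.79.

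MCM2 to MCM7 form the ring itself, and all 6 subunits were lower. MCM4 had 330 and 346 in MT1-MMP siRNA cells, 654 and 941 in alpha3 siRNA cells, and 847 and 682 on the mock arrays (-1.10, SE 0.23), with its 4 probe sets between -1.21 and -0.50. MCM2 had 755 and 1025 in MT1-MMP siRNA cells, 2085 and 2150 in alpha3 siRNA cells, and 2052.5 and 1718 on the mock arrays (-1.07, SE 0.20). For both genes the MT1-MMP siRNA arrays were well apart from the other 4.

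MCM7 had 655 and 480 in MT1-MMP siRNA cells, 1606 and 1467 in alpha3 siRNA cells, and 1208 and 857 on the mock arrays (-0.82, SE 0.23), and its other probe set gave -0.81. MCM5 had 450 and 660 in MT1-MMP siRNA cells, 1308 and 1035 in alpha3 siRNA cells, and 1017 and 947 on the mock arrays (-0.81, SE 0.23). MCM3 had 416 and 524 in MT1-MMP siRNA cells, 870 and 979 in alpha3 siRNA cells, and 1150 and 597 on the mock arrays. Its log2 fold change of -0.79 (SE 0.29) turned on the mock array used, at -0.33 without mock replicate 1 and -1.24 without mock replicate 2. MCM6 was at -0.65 (SE 0.29).

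GINS1, a subunit of the GINS complex, had 391 and 252 in MT1-MMP siRNA cells, 277 and 766 in alpha3 siRNA cells, and 649 and 633 on the mock arrays (-0.96, SE 0.40 for MT1-MMP siRNA against mock). One alpha3 siRNA array was thus as low as the MT1-MMP siRNA arrays while the other was the highest of all. GINS2, another subunit, was at -0.25, and CDC7, the kinase that triggers origin firing, at -0.38.

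Polymerase alpha and primase lay down the primers, and 3 of their 4 genes had log2 fold changes near -1, while PRIM2 lay closer to mock. POLA1, the catalytic subunit of polymerase alpha, had 83.6 and 78.2 in MT1-MMP siRNA cells, 276 and 231 in alpha3 siRNA cells, and 223 and 208 on the mock arrays. The arrays of each group lay close together, with MT1-MMP siRNA apart from the rest, and the log2 fold change was -1.13 (SE 0.20, limma adjusted p = 0.137). PRIM1, the primase subunit that makes the RNA primer, had 272 and 455 in MT1-MMP siRNA cells, 783 and 835 in alpha3 siRNA cells, and 825 and 722 on the mock arrays (-1.06, SE 0.25). POLA2, the accessory subunit of polymerase alpha, had 128 and 133 in MT1-MMP siRNA cells, 195 and 308 in alpha3 siRNA cells, and 283 and 269 on the mock arrays (-0.92, SE 0.23).

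PRIM2, the other primase subunit, was at -0.16 with overlapping arrays, and 2 more probe sets annotated to it together with another symbol were left out. POLE2, a subunit of the leading-strand polymerase epsilon, had 114 and 166 in MT1-MMP siRNA cells, 375 and 372 in alpha3 siRNA cells, and 352 and 196 on the mock arrays (-0.80, SE 0.28, and -0.42 without mock replicate 1). The catalytic subunit POLE was at -0.55. The genes of the lagging-strand polymerase delta lay closer to mock, with POLD3 at -0.34, POLD2 at -0.20 and POLD1 at -0.15. The difference between the polymerases was not tested.

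**Figure D2:**
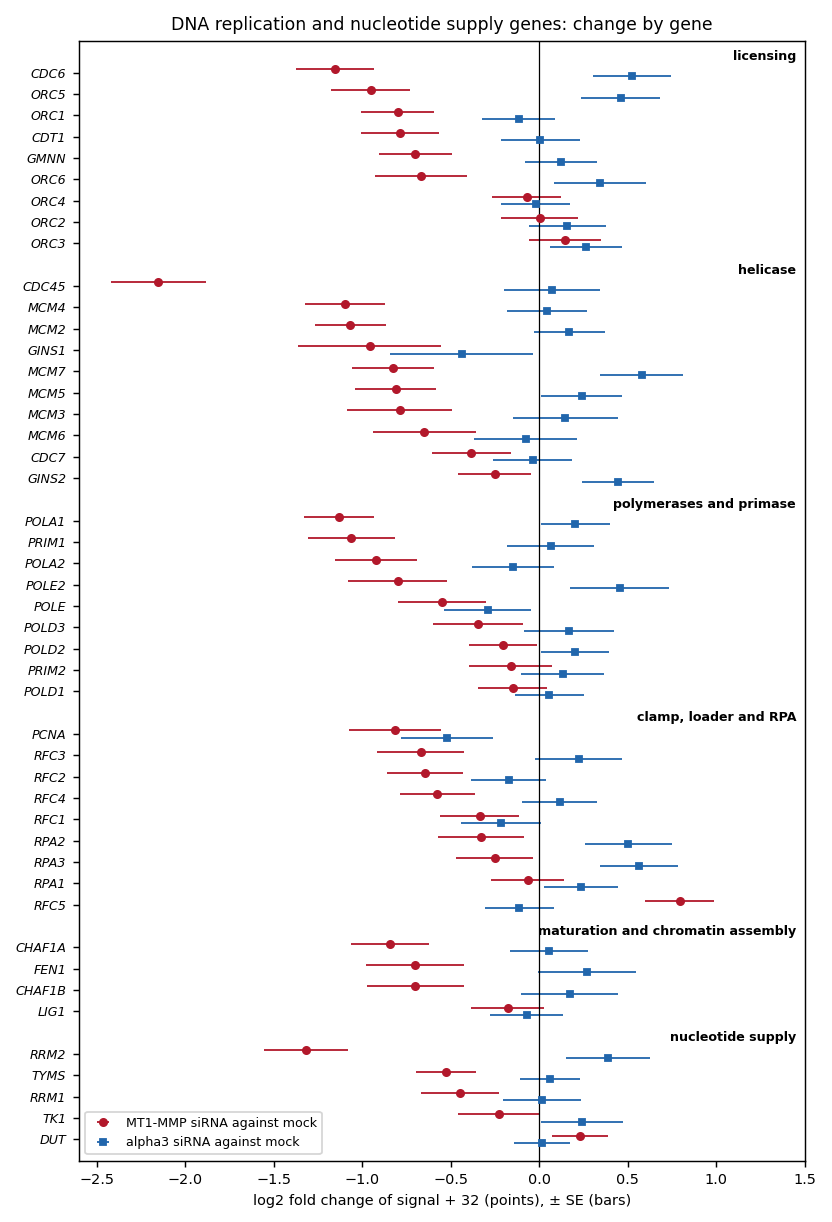
Points give the log2 fold change of each gene for MT1-MMP siRNA against mock (red circles) and alpha3 siRNA against mock (blue squares), with bars of 1 SE, grouped by role. Red points lie left of 0 for 42 of the 46 genes, with CDC45 farthest at -2.15 and RFC5 on the other side at 0.79, and blue points lie right of 0 for 34.

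PCNA, the sliding clamp, was the member that lay below both mock arrays on all 4 siRNA arrays. It had 636 and 1017 in MT1-MMP siRNA cells, 849 and 1164 in alpha3 siRNA cells, and 1556 and 1332 on the mock arrays. Neither siRNA group overlapped mock, with log2 fold changes of -0.81 (SE 0.26, adjusted p = 0.235 in limma) for MT1-MMP siRNA and -0.52 (SE 0.26, adjusted p = 0.863) for alpha3 siRNA. These were -0.49 without MT1-MMP siRNA replicate 1 and -0.30 without alpha3 siRNA replicate 1.

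The RFC proteins load PCNA onto DNA. RFC3 had 480 and 548 in MT1-MMP siRNA cells, 958 and 1004 in alpha3 siRNA cells, and 1071 and 650 on the mock arrays (-0.67, SE 0.25, with -0.32 without mock replicate 1 and -1.02 without mock replicate 2). RFC2 had 226 and 279 in MT1-MMP siRNA cells, 390 and 335 in alpha3 siRNA cells, and 465 and 364 on the mock arrays (-0.65, SE 0.21). RFC4 had 571 and 824 in MT1-MMP siRNA cells, 1154 and 1103 in alpha3 siRNA cells, and 998 and 1080 on the mock arrays (-0.58, SE 0.21, and -0.32 without MT1-MMP siRNA replicate 1). RFC1, the large subunit, was at -0.34 with overlapping arrays.

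RFC5 gave opposite answers on its probe sets. The one used for the gene, 213734_at, was the brightest only through the MT1-MMP siRNA arrays, since 203209_at read higher on the mock and alpha3 siRNA arrays, so the choice leaned on the difference itself. On 213734_at it had 556 and 694 in MT1-MMP siRNA cells, 305 and 329 in alpha3 siRNA cells, and 340 and 351 on the mock arrays, which puts it at 0.79 on the log2 scale (SE 0.19, limma adjusted p = 0.176) for MT1-MMP siRNA against mock. On 203209_at it had 241 and 312 in MT1-MMP siRNA cells, 326 and 401 in alpha3 siRNA cells, and 390 and 374 on the mock arrays, which is a log2 fold change of -0.43. On 203210_s_at it had 212 and 268 in MT1-MMP siRNA cells, 356 and 374 in alpha3 siRNA cells, and 391 and 325 on the mock arrays (-0.52). The mean of the 3 probe sets was at -0.054, so the direction of RFC5 is not settled by these arrays.

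**Figure D3:**
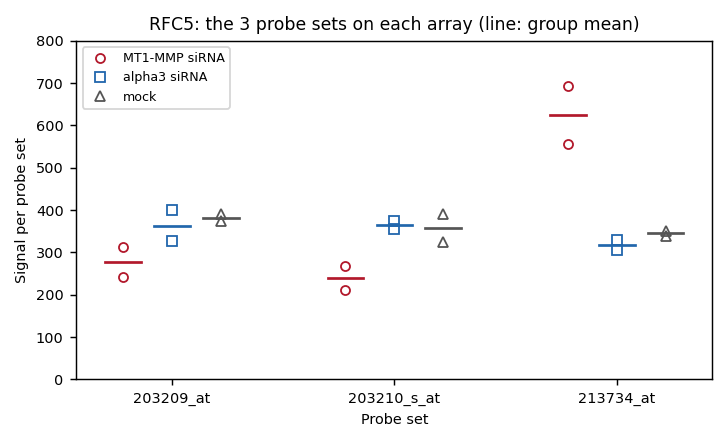
Signal of the 3 RFC5 probe sets on each array (open symbols) with the group mean (line), for MT1-MMP siRNA, alpha3 siRNA and mock from left to right. The MT1-MMP siRNA arrays are below both mock arrays on 203209_at and 203210_s_at and above them on 213734_at, where they reach 556 and 694.

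RPA, the complex that coats single-stranded DNA, lay closer to mock with MT1-MMP siRNA, with RPA1 at -0.06, RPA3 at -0.25 (-0.14 without MT1-MMP siRNA replicate 1) and RPA2 at -0.33. RPA3 had 575 and 681 in MT1-MMP siRNA cells, 1348 and 939 in alpha3 siRNA cells, and 764 and 740 on the mock arrays, so its alpha3 siRNA arrays were the ones that stood apart.

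Of the genes that finish new strands, FEN1, the flap endonuclease, had 641 and 644 in MT1-MMP siRNA cells, 1174 and 1419 in alpha3 siRNA cells, and 1439 and 787 on the mock arrays. Its log2 fold change was -0.70 (SE 0.28), but -0.28 without mock replicate 1 and -1.12 without mock replicate 2. LIG1, the ligase that seals the fragments, was at -0.18 with overlapping arrays. CHAF1A and CHAF1B, which deposit histones on new DNA, were at -0.84 (SE 0.22) and -0.70 (SE 0.28). CHAF1A had 143 and 179 in MT1-MMP siRNA cells, 371 and 286 in alpha3 siRNA cells, and 345 and 282 on the mock arrays, and its 3 probe sets ranged from -1.20 to -0.42. CHAF1B had 89.1 and 61.0 in MT1-MMP siRNA cells, 150 and 176 in alpha3 siRNA cells, and 185 and 105 on the mock arrays, and without mock replicate 1 it was at -0.37.

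In nucleotide supply, the small subunit of ribonucleotide reductase differed most. RRM2 had 1123 and 1691 in MT1-MMP siRNA cells, 4616 and 4530 in alpha3 siRNA cells, and 4121 and 2949 on the mock arrays (-1.32, SE 0.24, limma adjusted p = 0.139), and its other probe set was at -1.81. RRM1, the large subunit, was at -0.45 on its brightest probe set (SE 0.22) and -0.65 on the other. TYMS, which makes thymidylate, had 4129 and 3333 in MT1-MMP siRNA cells, 5140 and 6067 in alpha3 siRNA cells, and 5351 and 5355 on the mock arrays (-0.53, SE 0.17). TK1, the thymidine kinase of the salvage route, was at -0.23 with overlapping arrays. DUT, which removes dUTP, lay above mock at 0.23 (SE 0.16), with 2283 and 2180 in MT1-MMP siRNA cells, 1980 and 1860 in alpha3 siRNA cells, and 1872 and 1925 on the mock arrays, and its 3 probe sets ranged from 0.03 to 0.23.

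Of the 67 probe sets above the filter, 61 were below 0 for MT1-MMP siRNA against mock, 50 were below mock without overlap and 3 above, and the median was -0.65. The same shares over all probe sets were not computed. Over all genes, on the brightest probe set, they were 49.7% below 0, 25.3% below mock without overlap and 24.6% above. Of the 16 genes with several probe sets, RFC5 was the one whose probe sets differed in sign, and another 7 (CDC6, CHAF1A, DUT, MCM4, ORC4, RFC1 and RPA1) had log2 fold changes that differed by over 1.5 times.

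The second comparison sets the cells with alpha3 siRNA against the same mock arrays. With alpha3 siRNA the replication genes did not lie low: 34 of 46 were above the mock mean and 12 below, where 52% of all genes were below, and the median was 0.13, against -0.01 over all genes. None of the 46 passed the threshold in limma (0.0249% of all genes did). At an unadjusted p under 0.05, 3 members were higher (2.51% of all genes), namely MCM7 (log2 fold change 0.58, SE 0.23), RPA3 (0.56, SE 0.22) and CDC6 (0.53, SE 0.22), and 0 were lower (3.22%). Each rested in part on 1 array, with MCM7 at 0.34 and CDC6 at 0.28 without mock replicate 2 and RPA3 at 0.31 without alpha3 siRNA replicate 1. For 15 members both alpha3 siRNA arrays lay above both mock arrays (16.4% of all genes), and for PCNA and the 213734_at probe set of RFC5 they lay below (18%). Leaving out mock replicate 2 gave a median of -0.0028 and leaving out mock replicate 1 gave 0.21, so the side of 0 on which these genes lie depends on which mock array is used. For 9 of the 16 genes with several probe sets these differed in sign in this comparison, among them RFC2 at -0.17 and 0.50.

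The difference between the siRNAs was then tested directly, between cells that both carry the vector and express an siRNA, and in which MMP14 lay below mock in both. It uses the same MT1-MMP siRNA arrays as the first comparison, and so is not independent of it. In this test 7 of the 46 members passed an adjusted p under 0.05 in limma and all 7 were lower with MT1-MMP siRNA, where 1.39% of all genes passed and 0.572% passed as lower. They are RRM2 (log2 fold change -1.71, SE 0.24, adjusted p = 0.0276), CDC6 (-1.68, SE 0.22, adjusted p = 0.0232), ORC5 (-1.41, SE 0.22, adjusted p = 0.0312), MCM7 (-1.40, SE 0.23, adjusted p = 0.0347), POLA1 (-1.34, SE 0.20, adjusted p = 0.0287), MCM2 (-1.24, SE 0.20, adjusted p = 0.0329) and CDC45 (adjusted p = 0.0232). CDC45 lay under the filter level on both MT1-MMP siRNA arrays, and the mean of its alpha3 siRNA arrays was 4.36-fold above that level. It was not tested with the filter at the 60th percentile. The 7 genes include factors of licensing, of the helicase, of primer synthesis and of deoxynucleotide supply.

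Of the 46, 44 were below 0 (48.1% of all genes) with a median of -0.69, against 0.02 over all genes. The arrays did not overlap for 37 members that were lower (25.9% of all genes) and 2 that were higher (28%). At an unadjusted p under 0.05, 26 were lower and 1 was higher (11.7% of all genes in either direction). The higher one was RFC5, on its 213734_at probe set (log2 fold change 0.91, SE 0.19, adjusted p = 0.0566), and DUT was the other member above 0, at 0.21. PCNA (-0.29) and GINS1 (-0.52) had overlapping arrays between the siRNAs.

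The calls of this comparison depended on single arrays. Without either MT1-MMP siRNA array 0 of the 46 members and 0 of all genes passed, without alpha3 siRNA replicate 1 only CDC45 did (60 of all genes), and without alpha3 siRNA replicate 2 none did (6 of all genes). Without mock replicate 1 there were 6, with MCM2 lost. The median of the members stayed between -0.75 and -0.68 over these 6 settings.

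**Figure D4:**
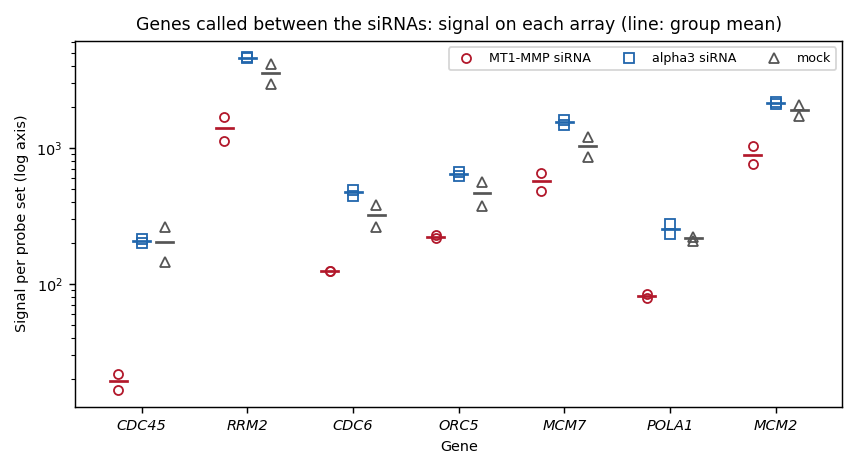
Signal on each array, on a log axis, for the 7 genes past the threshold between the siRNAs, with MT1-MMP siRNA, alpha3 siRNA and mock from left to right in each column and a line at the group mean. In every gene both MT1-MMP siRNA arrays lie below the other 4, and for CDC45 they are at 16.6 and 21.7.

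Replication genes outside the 46 stood on the same side. From a list of 71 genes of origin firing, the fork, chromatin replication and nucleotide synthesis, 57 were above the filter. With MT1-MMP siRNA against mock, 49 of the 57 were below 0 (49.7% of all genes) with a median of -0.37, 16 were lower (7.66% of all genes) and 1 higher (6.76%) at an unadjusted p under 0.05, and 0 passed the threshold over all genes in limma. The 8 genes of origin licensing and firing were all below 0 (median -0.54) and so were the 13 genes of purine synthesis (median -0.40). Fork and lagging-strand genes had a median of -0.34 over 13, chromatin replication genes -0.45 over 7, and pyrimidine and deoxynucleotide genes -0.25 over 16.

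CTPS1, which makes CTP, was the lowest of the list, with 345 and 455 in MT1-MMP siRNA cells, 947 and 1382 in alpha3 siRNA cells, and 1100 and 925 on the mock arrays (log2 fold change -1.28 against mock, SE 0.24). It was also the gene of the list that passed between the siRNAs (-1.46, limma adjusted p = 0.0347). That is 1 of 57, where 1.39% of all genes passed and 0.572% passed as lower. MCM10, which helps CDC45 join the helicase, had 154 and 196 in MT1-MMP siRNA cells, 433 and 636 in alpha3 siRNA cells, and 558 and 352 on the mock arrays (-1.21 against mock, SE 0.28). At the other end were WDHD1, a fork protein, at 0.54 and CTPS2, a second CTP synthase, at 0.51, both dim. WDHD1 had 66.8 and 68.4 in MT1-MMP siRNA cells, 76.2 and 102 in alpha3 siRNA cells, and 49.2 and 26.1 on the mock arrays, and CTPS2 had 125 and 131 in MT1-MMP siRNA cells, 79.7 and 110 in alpha3 siRNA cells, and 74.5 and 85.6 on the mock arrays.

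The promoters of the members were read for letters bound by known regulators of S phase genes. RefSeq promoter windows (GRCh38.p14, 250 bases before to 50 after a transcript start) were found for 41 of the 46 genes, with 56 windows in all because 11 genes had several starts. The E2F-type words searched on both strands were TTTCCCGC, TTTCGCGC, TTTGCCGC and TTTGGCGC, counted wherever they overlapped, and the other motifs were the CCAAT box (CCAAT) and the CHR element (TTTGAA). An E2F-type word was present for 20 of the 41 members (48.8%), against 6.86% of the 6717 tested genes with a window and 3.99% of all 27305 genes in the table. Per window, which does not depend on the number of starts, the shares were 35.7% of the members' windows, 4.89% of those of tested genes and 3.31% of all. A CCAAT box was present for 58.5% of the members, against 44.7% of tested genes and 39.7% of all genes, and a CHR element for 4.88% of the members, against 14.5% of tested genes and 18.2% of all genes. A match of letters is a description and no evidence of binding in these cells.

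Of the 28 E2F-type words in the members, 22 lay wholly before the start and 22 began within 100 bases of it. MCM6 held 4 words, in 2 overlapping pairs, and MCM2 held 2 overlapping words just after the start, from positions 3 to 14. The 20 members with a word had a median log2 fold change of -0.74 for MT1-MMP siRNA against mock, and the 21 members without one had -0.58, a difference that was not tested. CDC45 and RRM2, the members with the lowest fold changes, were among those without any of the E2F-type words searched. Near forms were not counted. An example is tttggcgg, which differs from TTTGGCGC in its last base and stands before the start in the CDC45 and CDC6 windows below.

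**Figure D5:**
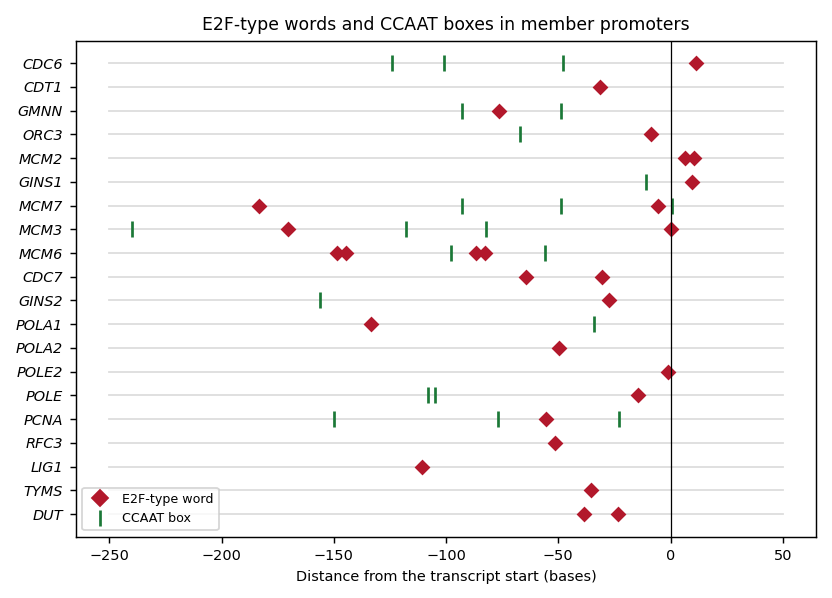
Positions of E2F-type words (red diamonds) and CCAAT boxes (green bars) in bases from the transcript start, for the 20 members with an E2F-type word, in the window that holds it. Of the 28 words 22 begin within 100 bases of the start, and those of MCM6 and MCM2 sit in overlapping pairs.

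The windows of the 4 members with the lowest log2 fold changes for MT1-MMP siRNA against mock among those with a motif are shown, since they hold both arrangements, CCAAT boxes alone and CCAAT boxes with an E2F-type word. All are on the plus strand and read 5′ to 3′. Capitals mark a CCAAT box on either strand (CCAAT or ATTGG) or an E2F-type word. CDC45 (chr22:19479670-19479969, 1 of 3 windows) held 4 CCAAT boxes, RRM2 (chr2:10122489-10122788, 1 of 2 windows) held 3 CCAAT boxes, CDC6 (chr17:40287629-40287928) held 3 CCAAT boxes and 1 E2F-type word, and POLA1 (chrX:24693668-24693967) held 1 of each.
CDC45: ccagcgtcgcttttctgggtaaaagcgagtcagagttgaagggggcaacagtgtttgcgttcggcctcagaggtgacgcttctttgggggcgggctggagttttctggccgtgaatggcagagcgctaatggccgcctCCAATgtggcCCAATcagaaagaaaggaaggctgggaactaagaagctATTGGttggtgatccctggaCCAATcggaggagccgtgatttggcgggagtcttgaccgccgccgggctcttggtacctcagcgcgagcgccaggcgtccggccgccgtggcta
RRM2: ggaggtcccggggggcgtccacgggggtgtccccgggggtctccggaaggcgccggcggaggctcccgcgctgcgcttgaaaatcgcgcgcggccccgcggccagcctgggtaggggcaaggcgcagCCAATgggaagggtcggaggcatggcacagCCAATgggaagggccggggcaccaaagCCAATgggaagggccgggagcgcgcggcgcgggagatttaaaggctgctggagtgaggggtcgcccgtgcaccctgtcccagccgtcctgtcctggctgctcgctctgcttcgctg
CDC6: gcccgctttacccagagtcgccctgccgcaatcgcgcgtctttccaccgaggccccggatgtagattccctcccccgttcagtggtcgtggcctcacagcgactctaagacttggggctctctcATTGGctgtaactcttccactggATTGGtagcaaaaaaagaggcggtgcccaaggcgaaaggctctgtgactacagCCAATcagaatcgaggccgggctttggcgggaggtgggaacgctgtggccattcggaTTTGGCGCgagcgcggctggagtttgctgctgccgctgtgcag
POLA1: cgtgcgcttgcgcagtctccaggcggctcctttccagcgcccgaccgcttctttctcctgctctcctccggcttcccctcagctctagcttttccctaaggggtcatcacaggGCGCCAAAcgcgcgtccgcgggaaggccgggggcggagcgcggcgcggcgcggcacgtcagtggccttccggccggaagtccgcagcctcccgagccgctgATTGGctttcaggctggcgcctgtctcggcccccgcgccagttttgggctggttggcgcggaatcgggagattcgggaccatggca

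The boxes of RRM2 began at positions -123, -93 and -66, at spacings of 30 and 27 bases, and those of CDC45 at -112, -102, -64 and -44. The E2F-type word counted for CDC6 lay after the transcript start, at positions 8 to 15, and that of POLA1 lay upstream, at -137 to -130 on the opposite strand. All 4 of these genes passed the threshold between the siRNAs. Of the 7 genes that did, 4 (57.1%) held an E2F-type word (CDC6, MCM2, MCM7 and POLA1), against 48.8% of the members with a window. A CCAAT box was present for 5 of the 7 (71.4%), against 58.5% of the members. These differences were not tested.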

How the data were processed

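RNA of HT1080 cells was measured on 6 single-channel arrays of 22283 probe sets, 2 per group. The authors deposited 1 intensity per probe set and array, already scaled: the mean over the middle 96% of probe sets was about 250.1 on every array. The software behind these values is not given in the sources used here, and no detection calls were used. Probe sets were named from the platform annotation: 19065 had 1 symbol, 1043 several, 2107 none and 68 were controls, and 19053 were matched to RefSeq by gene ID.

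Values below a floor of 1 were raised to it, and the analysis used log2(value + 32). The brightest probe set per gene was kept where its mean exceeded the 40th percentile (signal 47.5), which left 8045 genes. All 3 groups entered 1 fit in limma 3.58.1 (R 4.3.3; lmFit, eBayes with a trend; 3 residual and 5.35 prior degrees of freedom), with Benjamini-Hochberg adjustment over all genes and a threshold of 0.05. The fit was tested on simulated data. The number of arrays limits the precision. Array values are given for members with an unadjusted p under 0.05 against mock with either siRNA, and for members on the other side of 0 from the median. The members, gene lists and tests were chosen with earlier results of these data known. Protein features were not analysed here. Alternatives covered normalization, offset, filter, choice of probe set, the model and each array left out. Motifs were counted with Python 3.11.15 and pandas 2.3.3, and figures drawn with matplotlib 3.10.9.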

Additional observations from a re-analysis of the deposited data

Results flagged for a closer look

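The hybridisation control probe sets, which report spiked RNA and not the cells, were brighter on both MT1-MMP siRNA arrays than on any mock array. Their median fold over the mock mean, over 18 probe sets, was 2.30 on MT1-MMP siRNA replicate 1 and 1.29 on MT1-MMP siRNA replicate 2, against 0.927 and 1.07 on the mock arrays. They were singled out because they show a signal above the control arrays in probe sets that no comparison uses.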

How the results depend on the processing

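Of the values recomputed under 19 alternatives, 861 kept their direction and side of the threshold, or moved by less than the spread between replicates. Another 21 moved by more, 6 reversed, 3 single-gene values gained the call, and 36 kept their direction but lost the call. The 861 are no measure of stability, because several settings, such as the fit without a trend, cannot change a fold change. With either siRNA against mock no member passed in the main fit, so no call could be lost there. All 36 lost calls belong to the 7 members that passed between the siRNAs. For MT1-MMP siRNA against mock, 1 member passed with an offset of 1, and 0 with any array left out. The median was -0.53 with an offset of 100 and -0.77 to -0.42 with an array left out. At an unadjusted p under 0.05, 40 of the 67 probe sets were lower when each was tested on its own, and 13 to 28 genes with an array left out. ORC2 reversed to -0.0014 with an offset of 100, and ranged between -0.23 and 0.24 with an array left out, at -0.23 without mock replicate 2 and -0.04 without MT1-MMP siRNA replicate 2. RFC5 reversed with the mean of its probe sets, to -0.054 against mock and -0.0021 against alpha3 siRNA.

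For alpha3 siRNA against mock, the median ranged between -0.0028 and 0.21 with an array left out, and GINS1 between -1.12 and 0.25. For MT1-MMP siRNA against alpha3 siRNA, 2 members passed with no filter. When each probe set was tested on its own, 11 probe sets of the members passed, of 162 among all 11828. RRM2 and MCM7 were each counted more than once among them. The median was -0.80 with an offset of 1 and -0.58 with an offset of 100. In the fit of each probe set, 40 probe sets of the members were lower at an unadjusted p under 0.05. The share over all probe sets was not computed for that fit. In the main fit, on the brightest probe set, 11.7% of all genes were lower at that p. RFC5 passed between the siRNAs with a filter at the 60th percentile (0.91, limma adjusted p = 0.0495). Over all genes 112 passed, against 22 with no filter, 72 without a trend, 153 with an offset of 100 and 178 with the filter at the 60th percentile. The causes were not tested.

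The deviations of same-numbered arrays correlated at -0.18 (mock with either siRNA) and 0.13 (between the siRNAs), so not every pair agreed and the numbers were not used as pairs. With the replicate block, 1 member (CDC45) passed for MT1-MMP siRNA against mock and 7 against alpha3 siRNA, of 11 and 114 over all genes. With the mock numbers crossed, chosen after seeing the data, the counts were 3 and 17, of 51 and 599 over all genes. Signal near background limits CDC45 and other dim genes.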
